A study of Mus musculus with 4 samples.

Results

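Of the 18471 genes in the deposited table, 9 were examined as the forkhead transcription factors of the developing retina, chosen by symbol: Foxn3, Foxn2, Foxn4, Foxj1, Foxj2, Foxj3, Foxk1, Foxk2 and Foxp1. The libraries came from mouse retinas dissected at embryonic day 19. By their labels, 2 embryos were wild-type and 2 were Foxn3-/- (called Foxn3KO in the sample names), a deletion of exon 3 of Foxn3 in the strain C57BL/6NJ-Foxn3em1(IMPC)Bay/Mmnc. The strain of the wild-type embryos, their relation to the mutants and the sex of the embryos were not given in the sources used here. The allele is present in every cell of the mutant embryo, so the retina is not its only site of action.

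Forkhead factors share a winged-helix domain that binds DNA, and members of one subfamily often recognise similar sites. Foxn3 is mostly known as a repressor of transcription. Foxj1 is the factor that switches on the genes of motile cilia, and Foxn4 directs retinal progenitors towards amacrine and horizontal cell fates. Foxk1 and Foxk2 are repressors that recruit the Sin3 complex, Foxp1 acts as a dimer with other Foxp proteins, and Foxj2 and Foxj3 are broadly expressed relatives of Foxj1.

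In the libraries labelled Foxn3KO, 3 of the 9 genes rose and none fell. Foxj1 rose 21.9-fold, Foxn3 1.46-fold and Foxn2 1.24-fold. The other 6, Foxn4, Foxj2, Foxj3, Foxk1, Foxk2 and Foxp1, did not pass the test. Over all 17300 tested genes, 21.9% passed and 12.3% passed as rises, so a rise was a frequent event and 3 of 9 is a count from few genes. The balance depended on scaling: 2123 genes rose and 1672 fell, against 1916 and 2060 under total count scaling. The median log2 fold change was 0.07 over the 9 genes and -0.00470 over all tested genes.

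Total counts ran from 22543531 to 29360129 per library. One library stood apart: wild-type replicate 1 had 83073 Xist counts and 0 Ddx3y counts, and the other 3 had at most 19 and at least 1780. By these counts wild-type replicate 1 was female and the other 3 were male. Wild-type thus held both sexes and Foxn3KO only males, and the part of sex in the results was not tested. Marker sums of retinal progenitors ran from 2781 to 2963 CPM (counts scaled to the size of the library) with overlapping groups, and 3 of the 8 genes rose and 1 fell. Those of photoreceptors were 978 and 962.3 CPM in wild-type and 1016 and 1009 CPM in Foxn3KO, without overlap, and 3 of the 6 genes rose. Over all tested genes, 12.3% rose, 9.66% fell and 60.4% had groups without overlap. All markers of both lists were detected in every library. Ganglion cell markers summed to between 979.6 and 1054 CPM and vessel and mesenchyme markers to between 387 and 419 CPM, with overlapping groups for the first. Of the 6 ganglion cell genes 1 fell, and of the 7 vessel and mesenchyme genes 1 rose. Amacrine and horizontal markers summed to between 604 and 644 CPM with overlapping groups, and 3 of the 8 genes fell and none rose. Lens markers differed: the 7 measured genes summed to 4.14 and 57.2 CPM in wild-type replicates 1 and 2, and to 195 and 192 CPM in Foxn3KO. All 7 rose, and Crygs was at 0 in wild-type replicate 1. Pigment epithelium markers went the other way, with 50.7 and 75.5 CPM against 38.7 and 40.1 CPM, and 3 of the 6 tested genes fell. The part of these tissues in the results below was not tested. In such bulk samples, more transcript per cell and more cells that hold it cannot be told apart.

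Levels were compared between genes on the deposited FPKM scale, which corrects for gene length. In wild-type retina the order was Foxn4, Foxk2, Foxn3, Foxk1, Foxj3, Foxj2, Foxn2, Foxj1 and Foxp1. Foxn4 had 55.4 and 58.5 FPKM and Foxp1 2.25 and 2.54 FPKM. Neighbours in that order had ranges over the 2 libraries that did not overlap, except Foxk1 and Foxj3, whose ranges overlapped at means of 6.74 and 6.69 FPKM. Foxn4 was above 96.2% and 96.4% of all listed genes in the wild-type libraries, and Foxp1 above 38.7% and 40.3%.

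In the libraries labelled Foxn3KO the order changed at the top. Foxj1 moved from rank 8 of the 9 to rank 1, with 67.3 and 66.5 FPKM, and stood above Foxn4 at 55.7 and 56.6 FPKM. Foxn4, Foxk2 and Foxn3 followed in the same sequence as before. Foxj3 and Foxk1 overlapped again, and so did Foxn2 and Foxj2, at means of 5.48 and 5.48 FPKM.

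**Figure D1:**
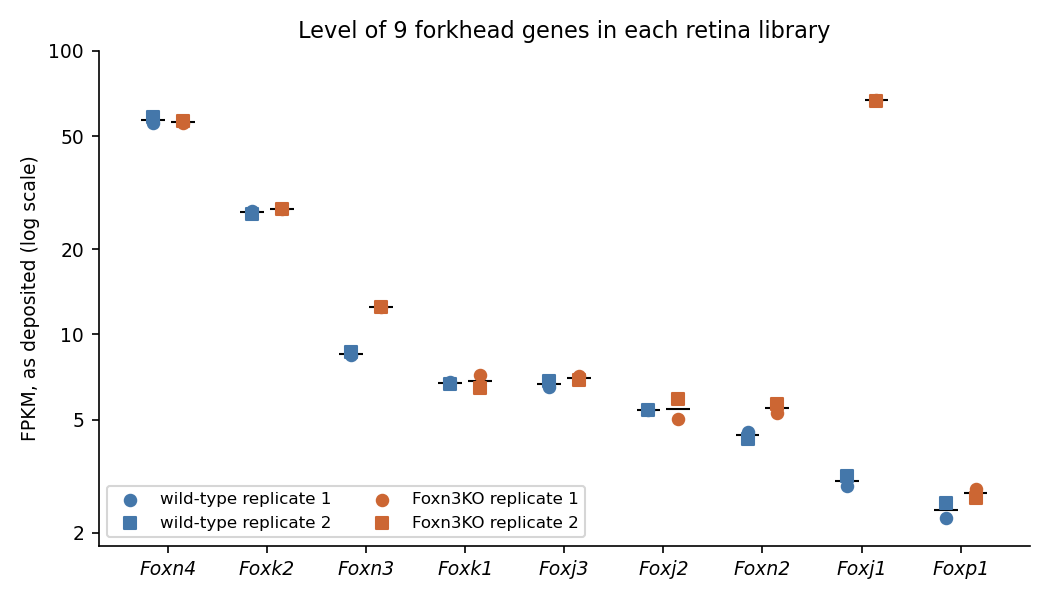
FPKM as deposited (log axis) of the 9 genes in each library, ordered by wild-type mean; circles are replicate 1, squares replicate 2, and short lines the group means. Foxj1 is near the bottom in wild-type at 2.92 and 3.16 FPKM and at the top in Foxn3KO at 67.3 and 66.5 FPKM, whereas the groups of Foxn4 and Foxk2 lie close together.

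The forkhead family as a whole was then summed. With the members, 13 further forkhead genes were summed, 22 in all. Their summed level was 213 and 219.99 FPKM in wild-type and 277 FPKM in both Foxn3KO libraries. Without Foxj1 the sums were 210.4 and 217 FPKM in wild-type and 209.8 and 210.4 FPKM in Foxn3KO, and the ranges overlapped. Foxj1 made up 1.37% and 1.44% of this forkhead FPKM in wild-type and 24.3% and 24.0% in Foxn3KO. The share of Foxn4 was 25.98% and 26.6% in wild-type and 20.1% and 20.4% in Foxn3KO. These sums describe transcripts and not protein.

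**Figure D2:**
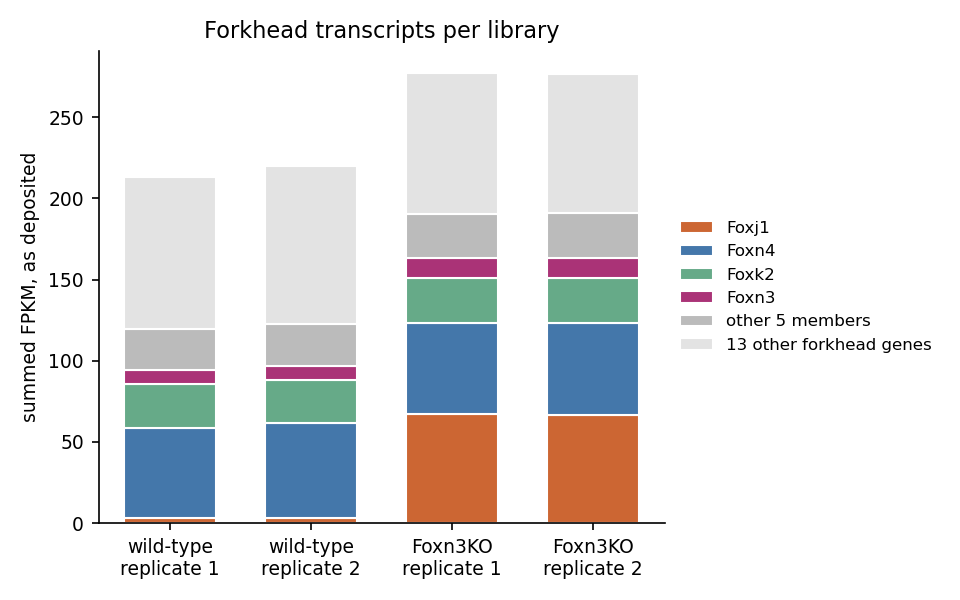
Summed FPKM of the 22 forkhead genes in each library, stacked by gene, with 5 other members and 13 other forkhead genes pooled. The taller Foxn3KO bars (277 against 213 and 219.99 FPKM) carry a Foxj1 segment of 67.3 and 66.5 FPKM that is 2.92 and 3.16 FPKM in wild-type.

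The Foxn subfamily holds the targeted gene. Foxn3 itself (ENSMUSG00000033713) had 97.6 and 99.8 CPM in wild-type and 144 CPM in both Foxn3KO libraries. The groups did not overlap, and the libraries within a group differed by at most 1.02-fold. Such a lack of overlap held for 60.4% of all tested genes, so it says little here and for the genes below. The log2 fold change was 0.54 (SE 0.046, adjusted p = 7.8e-08), an increase of 1.46-fold with a 95% interval of 1.36 to 1.56. The whole-gene counts do not separate reads of exon 3, so this level says nothing of the deletion, and since the targeted gene was higher in its own knockout group, each direction here rests on the labels. On the log2 scale the change was 0.53 without wild-type replicate 1. By level, Foxn3 was above 64.9% and 65.4% of listed genes in wild-type and above 74.1% in both Foxn3KO libraries.

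The region before one annotated start of Foxn3 is shown because this gene rose, beside those of the 2 members with the highest wild-type level, Foxn4 and Foxk2, which did not pass the test. The sequences are from RefSeq on GRCm38.p6, an older build than the mm39 of the processing notes, and end just before the annotated start. They span 250 bases each and read 5′ to 3′ on the strand of the gene. Capitals mark GACGC, a site that Foxn3 and Foxn2 are known to bind besides the usual forkhead site, and GTTGCC, part of the site of RFX factors, on either strand, so GCGTC and GGCAAC are marked too.
Foxn3, chr12:99450075-99450324, minus strand: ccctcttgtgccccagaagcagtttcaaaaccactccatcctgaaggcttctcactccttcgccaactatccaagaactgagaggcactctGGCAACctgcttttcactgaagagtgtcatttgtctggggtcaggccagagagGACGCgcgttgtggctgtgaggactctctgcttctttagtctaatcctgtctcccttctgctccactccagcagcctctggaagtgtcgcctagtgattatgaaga
Foxn4, chr5:114273762-114274011, minus strand: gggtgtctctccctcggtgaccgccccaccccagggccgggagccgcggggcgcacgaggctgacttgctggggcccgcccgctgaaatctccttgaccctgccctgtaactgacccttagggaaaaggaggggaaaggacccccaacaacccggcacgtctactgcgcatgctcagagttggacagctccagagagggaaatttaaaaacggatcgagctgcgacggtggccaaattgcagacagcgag
Foxk2, chr11:121259737-121259986, plus strand: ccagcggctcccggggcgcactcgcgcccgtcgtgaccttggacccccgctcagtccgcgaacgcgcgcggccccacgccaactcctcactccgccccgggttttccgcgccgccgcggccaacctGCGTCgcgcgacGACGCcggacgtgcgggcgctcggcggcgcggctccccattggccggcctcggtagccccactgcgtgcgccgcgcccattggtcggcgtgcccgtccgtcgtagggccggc
The Foxn3 window held GACGC once, with its first base at -106 from the annotated start, and GGCAAC once, at -159. The Foxk2 window held GACGC and its reverse complement GCGTC, and the Foxn4 window held none of the motifs. GACGC, on either strand, was found for 5 of the 6 members with a window, in 5 of their 8 windows. Of these 5 members, Foxn3 alone passed the test. G and C made up 52.4% of the Foxn3 window and 74.0% to 80.4% of the other member windows with GACGC. The median over all windows was 52.4%, and the part of base composition was not tested. Among 32851 such windows, 22.6% held GACGC, 10.4% GTTGCC and 3.17% GTAAACA, a common forkhead site, on either strand. Of the 9 genes, 6 had a window in the table, 8 windows in all, and none of the 8 held GTAAACA. These are matches of letters within 250 bases and say nothing of binding. Foxj1, Foxn2 and Foxk1 had no entry.

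Foxn2 (ENSMUSG00000034998), a close relative of Foxn3, had 33.5 and 31.6 CPM in wild-type and 39.0 and 41.9 CPM in Foxn3KO. The groups did not overlap. The log2 fold change was 0.31 (SE 0.068, adjusted p = 0.0026), or 1.24-fold with a 95% interval of 1.13 to 1.37. Without Foxn3KO replicate 2 the adjusted p was 0.055 at a log2 fold change of 0.26. Per length, Foxn3 exceeded Foxn2 by 1.87-fold and 2.02-fold in the wild-type libraries and by 2.36-fold and 2.19-fold in the Foxn3KO libraries.

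Foxn4 (ENSMUSG00000042002) had 188 and 198 CPM in wild-type and 188 and 191 CPM in Foxn3KO. The ranges overlapped. Its log2 fold change was -0.02 (adjusted p = 0.78), and the 95% interval of the fold ran from 0.923 to 1.05. The sign turned without wild-type replicate 2 (0.02). Per length, Foxn4 exceeded Foxn3 by 6.56-fold and 6.76-fold in wild-type and by 4.47-fold and 4.54-fold in Foxn3KO.

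The Foxj subfamily was examined next. Foxj1 (ENSMUSG00000034227) had 7.70 and 8.32 CPM in wild-type, from 191 and 226 counts, and 177 and 175 CPM in Foxn3KO, from 5154 and 3914 counts. The groups were far apart and the libraries within each agreed to 1.08-fold or better. The log2 fold change was 4.45 (SE 0.061, adjusted p = 1.6e-18), or 21.9-fold with a 95% interval of 20.1 to 24.0. No other of the 17300 tested genes had a smaller p, and Foxj1 ranked 37 by the size of the rise. The change was 4.40 on the log2 scale without wild-type replicate 1. Foxj1 marks ependymal cells as well, so the other markers of a joint list for ependymal cells and choroid plexus were summed. This list does not separate ependymal cells from choroid plexus. The 6 markers other than Foxj1 and the cilium gene Enkur summed to 473 and 477 CPM in wild-type and to 468 and 458 CPM in Foxn3KO, mostly Otx2, which the retina expresses. Of these 6, Folr1 and Aqp1 rose (log2 fold change 1.94 and 1.22), Clic6 and Ttr fell (-1.53 and -0.83), and Kl was not tested. Ttr is also among the pigment epithelium markers that fell. Over all tested genes 12.3% rose and 9.66% fell. None of the rises of these markers went above 5.01 CPM.

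Foxj2 (ENSMUSG00000003154) had 29.2 and 28.9 CPM in wild-type and 27.0 and 31.7 CPM in Foxn3KO. The Foxn3KO libraries lay on both sides of the wild-type ones and differed from each other by 1.18-fold. The log2 fold change was 0.01 (adjusted p = 0.93), with a 95% interval of the fold from 0.898 to 1.13, and its sign turned under total count scaling (-0.0067). In GENCODE M21 an exon of Foxj2 overlaps the opposite-strand gene Gm26826, which had 25 to 61 counts a library. The use of strand in the counting was not given in the sources used here, so reads of the pair cannot be separated.

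Foxj3 (ENSMUSG00000032998) had 72.1 and 75.3 CPM in wild-type and 78.7 and 76.2 CPM in Foxn3KO. Although the groups did not overlap, which held for 60.4% of all tested genes, the log2 fold change of 0.07 did not pass (adjusted p = 0.37). The 95% interval of the fold was 0.973 to 1.13. Within the Foxj subfamily, a rise past the test was therefore seen for Foxj1, with intervals for the other two that end at 1.13.

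The Foxk pair is made of Foxk2 at a higher and Foxk1 at a lower level. Per length, Foxk2 exceeded Foxk1 by 4.01-fold and 3.99-fold in wild-type and by 3.84-fold and 4.29-fold in Foxn3KO. Foxk1 (ENSMUSG00000056493) had 51.9 and 50.8 CPM in wild-type and 54.8 and 49.3 CPM in Foxn3KO, with overlapping groups and a log2 fold change of 0.02 (adjusted p = 0.86). Foxk2 (ENSMUSG00000039275) had 144 and 140 CPM in wild-type and 146 and 147 CPM in Foxn3KO. Its groups did not overlap, yet the log2 fold change of 0.04 did not pass (adjusted p = 0.59). The 95% intervals of the fold were 0.925 to 1.11 for Foxk1 and 0.962 to 1.10 for Foxk2.

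Foxp1 (ENSMUSG00000030067) had 31.1 and 35.0 CPM in wild-type and 39.3 and 36.7 CPM in Foxn3KO. The groups did not overlap, and the highest wild-type library was close to the lowest Foxn3KO library. The log2 fold change of 0.20 (SE 0.072) missed the threshold (adjusted p = 0.059). It passed with the replicate block (adjusted p = 0.040), with a minimum of 10 counts in every library (0.046) and without wild-type replicate 2 (0.0011). The adjusted p was 0.20 in DESeq2, 0.24 without wild-type replicate 1 and 0.39 without Foxn3KO replicate 1. The 95% interval of the fold, not adjusted for the number of genes, was 1.03 to 1.28. In GENCODE M21 exons of Foxp1 overlap the same-strand genes Gm49348 and Gm20696, which were not among the listed genes. Strand could not separate their reads from those of Foxp1.

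**Figure D3:**
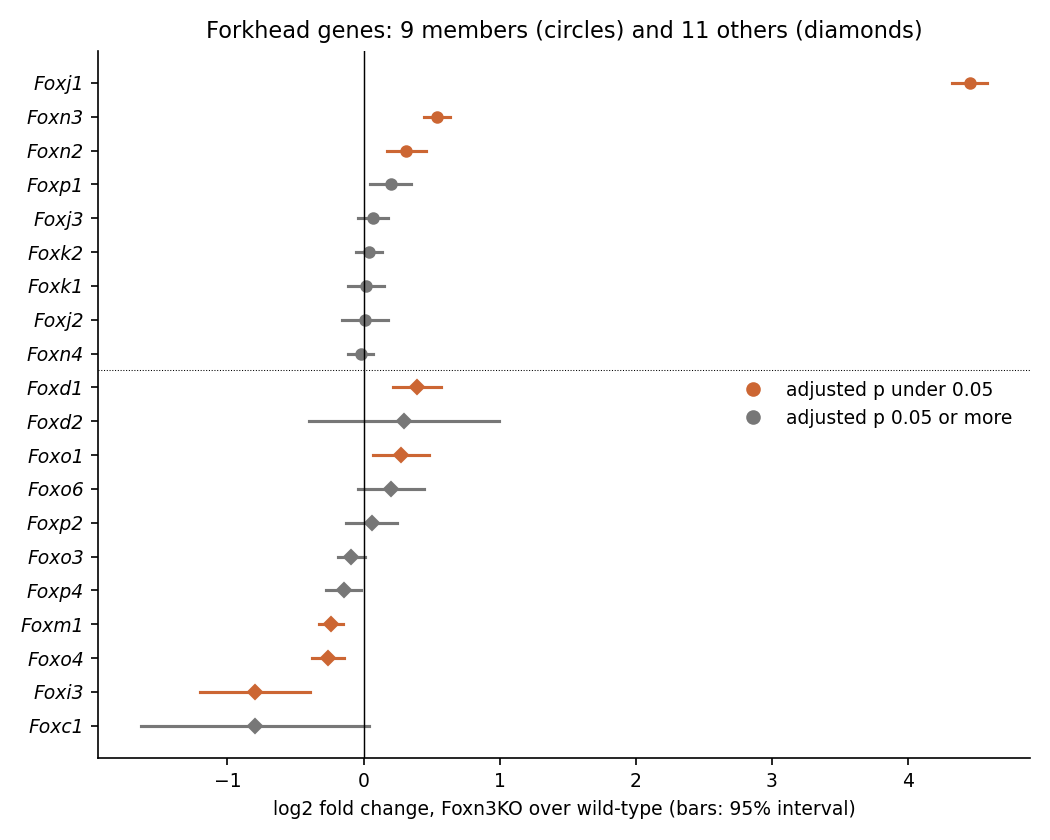
Log2 fold change of each tested forkhead gene, Foxn3KO over wild-type, with 95% intervals; circles are the 9 members, diamonds the 11 other tested genes, and orange marks an adjusted p under 0.05. Foxj1 lies alone at 4.45, while the other members lie between -0.02 and 0.54.

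In the authors' deposited table, which rests on the same counts, 3 of the 9 genes had an adjusted p under 0.05. Run here on these counts, DESeq2 called 2437 genes in all. In the authors' deposited table, the log2 fold change of Foxn2 is 0.29 (adjusted p = 0.012). That of Foxp1 in the authors' deposited table is 0.18 (adjusted p = 0.20). The DESeq2 run here gave 0.315 for Foxn2 and 0.201 for Foxp1 with the same adjusted p-values. The deposited log2 fold changes of both genes were thus smaller, and the reason was not tested.

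Of the 13 other forkhead genes, 11 were tested, 2 rose and 3 fell, where 12.3% of all tested genes rose and 9.66% fell. Foxp3 and Foxr2 had too few counts. The median log2 fold change over the 11 was -0.09. Foxd1, a factor of the temporal retina, rose from 20.6 and 23.2 CPM to 30.05 and 27.3 CPM (log2 fold change 0.39, adjusted p = 0.0022). The groups of Foxd1 did not overlap.

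Foxm1, which drives genes of cell division, fell from 193 and 195 CPM to 165 and 163 CPM (log2 fold change -0.24, adjusted p = 0.00054). Foxo4, a factor under control of insulin signalling like its relatives Foxo1 and Foxo3, fell from 64.1 and 66.7 CPM to 53.7 and 55.6 CPM (log2 fold change -0.26, adjusted p = 0.0024). Foxi3, known from ectodermal placodes, fell from 4.48 and 4.23 CPM to 2.58 and 2.41 CPM (log2 fold change -0.80, adjusted p = 0.0058).

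Foxo1 was the weakest call, with 15.7 and 14.1 CPM in wild-type and 17.1 and 19.02 CPM in Foxn3KO (log2 fold change 0.28, adjusted p = 0.049). DESeq2 gave Foxo1 an adjusted p of 0.19, and limma-voom gave 0.054. Foxo3 (log2 fold change -0.09), Foxo6 (0.20), Foxp2 (0.06), Foxp4 (-0.15) and Foxd2 (0.29) did not pass. Foxp4 passed without wild-type replicate 1 (log2 fold change -0.22, adjusted p = 0.0011). Foxo4 missed the threshold without Foxn3KO replicate 1 (adjusted p = 0.052). The count of 5 other forkhead genes past the test was 3 without that library.

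Genes known to depend on Foxj1 were compared as a list of structural parts of the motile cilium. All 26 measured genes of the list of 29 rose, with a median log2 fold change of 3.14. In each library the list summed to 223, 215, 1091 and 1092 CPM, in the order wild-type replicates 1 and 2, then Foxn3KO replicates 1 and 2. Cfap44, a part of the axoneme, had 0.323 and 0.147 CPM in wild-type, from 8 and 4 counts, and 82.0 and 80.4 CPM in Foxn3KO (log2 fold change 8.43, adjusted p = 1.1e-17). Tekt1, a filament of the doublet microtubules, went from 9.36 and 9.46 CPM to 118 CPM in both Foxn3KO libraries (log2 fold change 3.64). Ccdc40, a ruler of the axonemal repeat, went from 12.5 and 11.6 to 104 and 103 CPM (log2 fold change 3.11). Tekt4, Rsph4a and Spag17 were not found among the listed genes. The list was written with the earlier result on motile cilia genes known, so its direction is no independent evidence.

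**Figure D4:**
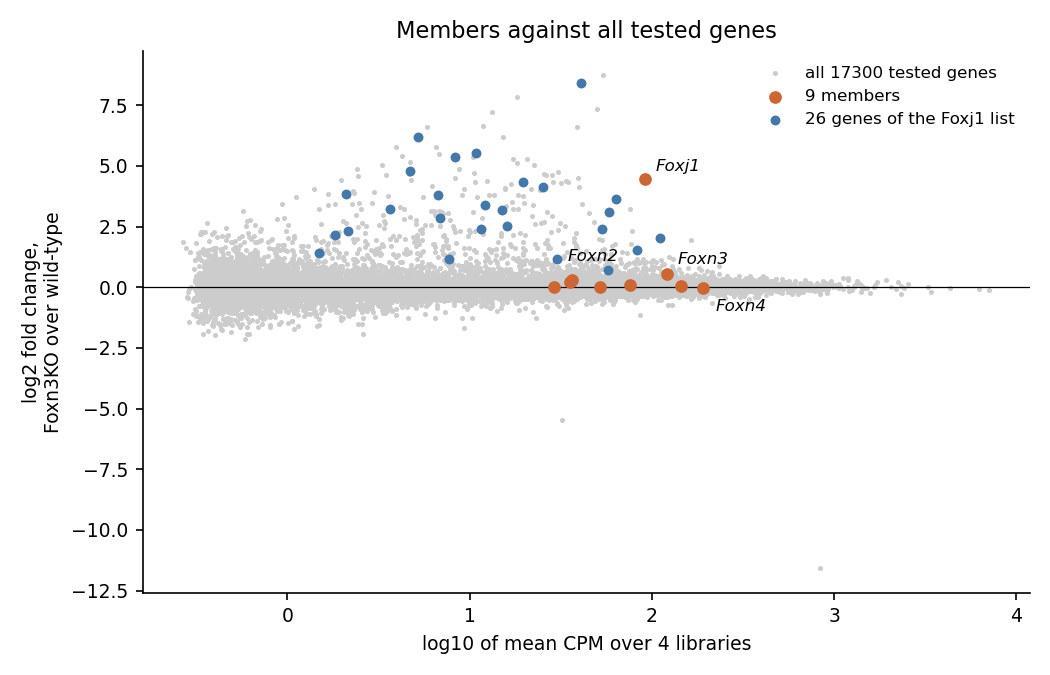
Log2 fold change against log10 of mean CPM for the 17300 tested genes (grey), the 9 members (orange) and the 26 genes of the Foxj1 list (blue). Foxj1 sits among the blue points, while Foxn4 and Foxk2 lie close to 0.

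Regulators that act upstream of or beside Foxj1 in ciliated cells were compared next. Of 13 measured genes, 6 rose and 1 fell, and the median log2 fold change was 0.18; over all tested genes 12.3% rose and 9.66% fell. Rfx2, a partner factor of Foxj1, had 20.2 and 23.7 CPM in wild-type and 57.0 and 60.2 CPM in Foxn3KO (log2 fold change 1.41, adjusted p = 1.2e-10). Ccno, a cyclin-like protein needed for making many centrioles, had 1.61 and 0.994 CPM against 11.7 and 11.1 CPM (log2 fold change 3.14, adjusted p = 6.9e-10). Rfx3, a second partner factor, rose by 0.40 on the log2 scale (adjusted p = 1.4e-05). Myb, which acts early in multiciliated cells and is also a factor of dividing cells, had 450 and 457 CPM against 440 and 446 CPM (log2 fold change -0.03, adjusted p = 0.60). Gmnc, Mcidas and Noto were not found among the listed genes.

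For Foxn4, genes of amacrine and horizontal fate, several of them known to act below it, were compared. Of 15 genes, 7 fell, none rose, and the median log2 fold change was -0.03; over all tested genes 9.66% fell. The falls were small. Isl1, a factor of ganglion and amacrine cells, fell from 95.6 and 96.2 CPM to 81.1 and 82.7 CPM (log2 fold change -0.23, adjusted p = 0.0025). Dll4, a Notch ligand known as a target of Foxn4, fell from 62.2 and 62.8 CPM to 48.7 and 54.9 CPM (log2 fold change -0.27, adjusted p = 0.0041). Dll3, another Notch ligand, fell from 64.6 and 70.2 CPM to 58.5 and 53.4 CPM (log2 fold change -0.27, adjusted p = 0.0042). Ptf1a, a factor known to act below Foxn4 in amacrine and horizontal precursors, had 24.9 and 24.7 CPM against 25.7 and 24.9 CPM (log2 fold change 0.03, adjusted p = 0.84). The 7 falls were 4 in DESeq2, 1 without Foxn3KO replicate 1 and 3 without Foxn3KO replicate 2. Without wild-type replicate 2, 6 fell and 3 rose, and without wild-type replicate 1, 7 fell and 1 rose.

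For Foxn3 and the Foxk pair, 18 known or likely cofactors were compared. Of these, 1 rose and 2 fell, where 21.9% of all tested genes passed in either direction, and the median log2 fold change was -0.00062. Ogt, which adds a sugar to nuclear proteins, fell from 580 and 547 CPM to 477 and 479 CPM (log2 fold change -0.24, adjusted p = 0.00039). Dvl1, a Wnt pathway protein, fell from 117 and 113 CPM to 97.2 and 98.2 CPM (log2 fold change -0.24, adjusted p = 0.0016). Snw1, a coregulator, went from 160 and 161 CPM to 175 and 175 CPM (log2 fold change 0.13), with an adjusted p of 0.046 that was 0.10 in DESeq2. Men1, a partner of Foxn3 in repression, did not pass (log2 fold change 0.05, adjusted p = 0.58). Without wild-type replicate 1, 7 of the 18 passed, 2 as rises and 5 as falls.

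Among 7 measured cofactors of Foxp1, none passed in edgeR or DESeq2, and 2 had an unadjusted p under 0.05. Foxp4 (log2 fold change -0.15, adjusted p = 0.093), Ctbp2 (0.11, adjusted p = 0.10) and Mta1 (0.08, adjusted p = 0.24) had the smallest p-values. Without wild-type replicate 1, Foxp4 and Ctbp2 passed, and without wild-type replicate 2, Mta1 passed.

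**Figure D5:**
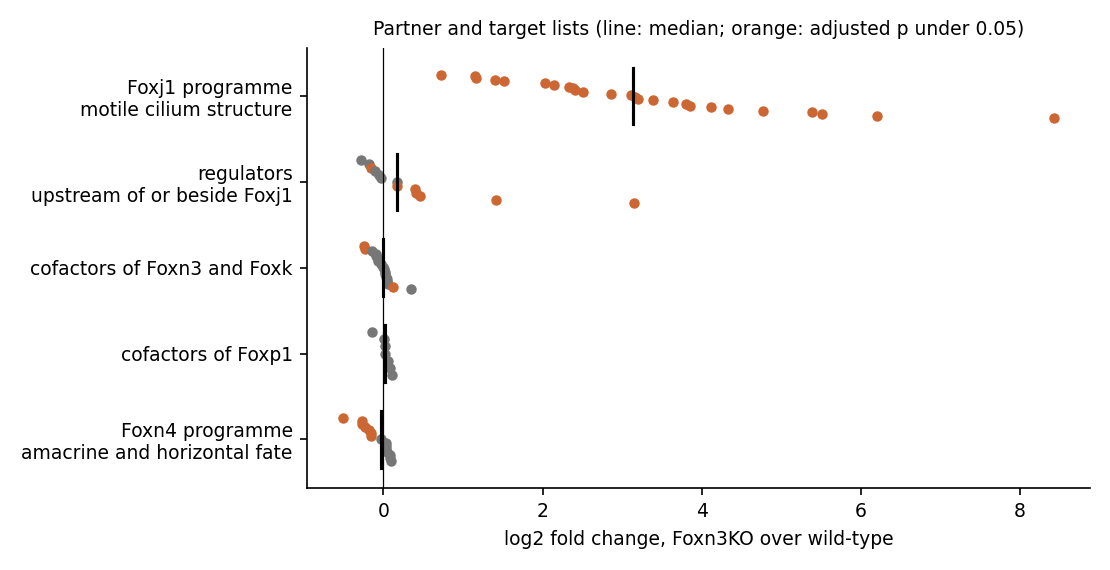
Log2 fold change of each measured gene in the 5 lists, with the list median as a black line and genes past the test in orange. The 26 genes of the Foxj1 list all lie above 0, with a median of 3.14, and the medians of the Foxn3 and Foxk, Foxp1 and Foxn4 lists are -0.00062, 0.02 and -0.03.

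The genes most like Foxn3 and Foxj1 across the 4 libraries were found by distance between centred log2 CPM values, among 14924 other genes whose mean reached 1 CPM. The measure rests on 4 libraries in 2 groups and so mostly on the size of the difference between the groups. Clip4 (distance 0.017), Ap1m1 (0.030) and Lix1 (0.032) were nearest to Foxn3, and 109 genes lay within 0.1. Clip4 had 28.03 and 28.5 CPM in wild-type and 41.7 CPM in both Foxn3KO libraries. Nearest to Foxj1 were Ttc21a (0.089), Cfap91 (0.11) and Enkur (0.11), and 1 gene lay within 0.1. Enkur had 3.35 CPM in both wild-type libraries and 77.3 and 73.3 CPM in Foxn3KO. Cfap91 had 0.484 and 0.478 CPM against 19.8 and 20.8 CPM.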

How the data were processed

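RNA was measured in 2 wild-type and 2 Foxn3KO retinas, each from an individual embryo per the labels, with libraries from a directional kit whose adaptors carry molecular identifiers. The table of the series holds raw read counts per gene and library, deposited by the authors without normalization. It also holds FPKM values that the authors derived per length and library, a deposited mean signal for each gene, and the authors' log2 fold changes, p-values and adjusted p-values. Build mm39 and DESeq2 are named in the submitters' processing notes; the aligner, the counting, the annotation and the use of the identifiers to remove duplicates were not given in the sources used here.

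One repeated identifier was dropped, leaving 18471 genes. The filter filterByExpr on low counts kept 17300, all 9 members among them. After TMM scaling the genotypes were compared in edgeR 4.0.16 under R 4.3.3 (its quasi-likelihood test, two-sided, with no covariate, Benjamini-Hochberg over all tested genes, threshold 0.05). Intervals use the same fit and are not adjusted. CPM use TMM-adjusted library sizes; CPM sums over lists use total counts. The p-values here are from such fits, from the alternatives named below or from the authors' deposited table. They rest on 2 libraries a group, or on a lone library in the group that lost a library. The spread of a gene is estimated in part from other genes. The procedure was tested on simulated data. The alternatives comprised scaling by RLE or by total count, other filters, DESeq2 1.42.0, limma-voom (limma 3.58.1), the earlier edgeR fit, a replicate block and omission of each library. FPKM were not tested.

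Named genes were the 9 members, other forkhead genes whose mean reached 1 CPM, the 3 smallest p-values of each list and the nearest genes by distance on log2(CPM + 0.5); Myb, Ptf1a, Men1 and the single marker genes were chosen after their values were seen. One further gene is not reported here and is left out of the forkhead sums and counts. The members and lists were chosen with earlier results of these data known. List symbols not in the table were looked up by identifier in GENCODE M21. Promoter windows were read from RefSeq tables on GRCm38.p6.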

Additional observations from a re-analysis of the deposited data

How the results depend on the processing

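Of the 9 log2 fold changes, 67 of the values under other settings kept direction and side of the threshold, 2 newly passed and 3 turned sign; leaving out a library kept 30, with 4 turned, 1 newly past and 1 lost. Foxn3 and Foxj1 passed under every setting run. Foxn3 ranged from 0.527 to 0.557 without a library and Foxj1 from 4.40 to 4.51. Foxn2 ranged from 0.264 to 0.367 without a library and missed the threshold without Foxn3KO replicate 2. Foxp1 ranged from 0.123 to 0.292 without a library, and passed with at least 10 counts in every library (0.202) and with the replicate block (0.202). Values near 0 changed sign: Foxn4 from -0.0579 to 0.0154, Foxj2 from -0.103 to 0.129 and Foxk1 from -0.0594 to 0.0958 without a library; Foxj2 under total count scaling (-0.00671) and limma-voom (-0.000882); Foxk1 under total count scaling (-0.000861). The cause was not tested.

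The 3 members past the threshold were 2 to 4 over all settings. The 5 other forkhead genes were 3 to 6 without a library, and 4 or 5 otherwise. The count over all genes, 3795, was 2437 in DESeq2 and 2323 to 5067 without a library; in these fits the lone library is assumed to vary like the other group. Without a library, Foxd2 ranged from -0.0990 to 0.623. Of the other named genes, 233 values under other settings stayed and 6 were lost; without a library 106 stayed, 10 were lost, 3 newly passed and 1 turned.

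The replicate numbers are shared between the groups, and whether they pair the samples was not settled. Differences between replicates correlated at 0.00526 over genes. Noise of low counts and the difference in sex within wild-type enter this value, so it cannot decide the question. With the replicate block, 4222 genes passed, 3792 of them among the 3795, and the calls of the other 8 members were as without it. The order of the 9 genes by mean FPKM over all libraries put 7 at the same place on the log2(FPKM + 1) scale, and 2 to 7 in single libraries. The fold of Cfap44 rests on 8 and 4 counts in wild-type.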
